A study of Mus musculus with 6 samples.

Results

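The 8 genes described here are Hmgcs1, Idi1, Fdft1, Sqle, Lss, Cyp51, Insig1 and Srebf2, a set of sterol synthesis enzymes with the transcription factor SREBP2 and one of its retention proteins. They were taken from a given list by symbol and matched to the Entrez gene IDs of a count table of 40808 genes. All 8 were found, and all 8 passed the filter on low counts, which 14110 genes passed in total. The set is named for cholesterol synthesis and uptake, but none of the 8 encodes a lipoprotein receptor, so uptake genes are given below from a separate list.

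The RNA came from the spleen of mice that had received transplanted bone marrow, and the labels call the source leukaemia cells of that organ. Of 6 libraries, 3 (replicates 4, 5 and 6) were from animals without Dox and 3 (replicates 10, 11 and 12) from animals with Dox. All animals of both groups were transplant recipients. The labels do not spell out Dox, and its dose, its duration, the gene it acts on, and the strain, sex and age of the animals are not given in the sources used here; nor is it stated whether each library is 1 animal, so p-values measure the spread between these libraries. The libraries were made from mRNA 3′ ends, where each transcript is expected to give 1 fragment whatever its length, so levels are given as normalized CPM (reads of a gene relative to all reads of its library, adjusted for composition and put on a shared scale) and are not divided by length.

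Total counts were 5541486 to 8725767 per library. The groups differed widely: 45.6% of the genes tested passed an adjusted p-value of 0.05, 22.1% lower and 23.6% higher with Dox. Spread between replicates was larger with Dox, with a common biological coefficient of variation of 0.515 against 0.19 without Dox. Y-linked genes had 545 to 801 counts in each library without Dox and 0 in each with Dox, and Xist ran the other way (193 to 324 against 3347 to 5669 counts), so that Dox and sex-linked differences cannot be told apart. The summed level of 20 T cell genes was 11.5 times lower with Dox, and that of 15 B cell genes 22.1 times and of 18 myeloid genes 4.35 times higher.

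Cholesterol is made from acetyl-CoA through mevalonate, the isoprenoid diphosphates, squalene and lanosterol. SREBP2, the product of Srebf2, is held in the endoplasmic reticulum by INSIG proteins when sterols are plentiful, and when sterols fall it moves to the Golgi, is cut, and its released part enters the nucleus and switches on most enzymes of the route. Dividing cells need sterols for membranes, and the isoprenoid intermediates also feed protein prenylation, dolichol and ubiquinone.

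SREBP2 is known to act at its targets together with NF-Y and Sp1, and the promoters of the set were searched for letters these factors are known to bind. The bases before the start of Hmgcs1, Srebf2 and Idi1 are printed because Hmgcs1 and Idi1 are the members that fell with Dox and Srebf2 encodes the factor itself; they are from RefSeq (GRCm38.p6), plus strand, 5′ to 3′, at chr13:119690101-119690350, chr15:82147019-82147180 and chr13:8885356-8885500. Capitals mark matches, on either strand, to TCACNCCA (a core of the SREBP site), CCAAT (the NF-Y box) or GGGCGG (the GC box); no marked match overlaps another.
Hmgcs1: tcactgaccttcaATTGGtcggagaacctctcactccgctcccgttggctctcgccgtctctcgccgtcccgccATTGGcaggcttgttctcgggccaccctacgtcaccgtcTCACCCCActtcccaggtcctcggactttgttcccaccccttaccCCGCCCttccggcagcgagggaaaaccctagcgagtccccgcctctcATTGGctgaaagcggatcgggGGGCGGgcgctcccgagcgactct
Srebf2: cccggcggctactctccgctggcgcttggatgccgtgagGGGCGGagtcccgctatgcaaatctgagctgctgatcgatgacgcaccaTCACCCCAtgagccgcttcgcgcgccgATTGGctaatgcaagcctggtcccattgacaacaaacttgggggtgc
Idi1: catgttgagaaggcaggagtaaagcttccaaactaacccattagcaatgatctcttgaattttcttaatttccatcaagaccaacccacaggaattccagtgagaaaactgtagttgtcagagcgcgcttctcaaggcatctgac
The last 2 stop where the GENCODE annotation places the gene's start, upstream of the RefSeq start. Promoter entries were matched for 6 of the 8 genes, all but Sqle and Fdft1. Over the 250 bases before the RefSeq start, TCACNCCA matched in 2 of the 6, Hmgcs1 (bases 137 to 130 before the start) and Srebf2 (bases 162 to 155), against 3.58% of 27025 promoters of the same length. CCAAT matched in 6 of 6 (34.46% of all promoters) and GGGCGG in 6 of 6 (32.94%). All matches of Idi1, CCAAT at bases 45 to 41 and 14 to 10 and GGGCGG at bases 69 to 64, lie outside the printed stretch. So do the GGGCGG matches of Srebf2 at bases 79 to 74, 52 to 47 and 34 to 29. A match describes letters in this window and was not measured as binding.

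Of the 8 genes, 2 fell with Dox, Idi1 and Hmgcs1, and none rose. That is 25% of the set, against 45.6% of all genes tested that were called in either direction and 22.1% called lower. The estimates of all 8 were below 0, with a median log2 fold change of -0.45 against 0.07 over all genes tested, but when libraries were scaled by size only, which shifted the median of all genes by 0.31, the estimates of 4 of the 8 were below 0. Groups did not overlap in 3 of the 8 (Idi1, Hmgcs1 and Lss), against 59.6% of all genes tested. Together the 8 genes summed to 152, 169 and 195 CPM without Dox and 145, 101 and 98.7 CPM with Dox.

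**Figure D1:**
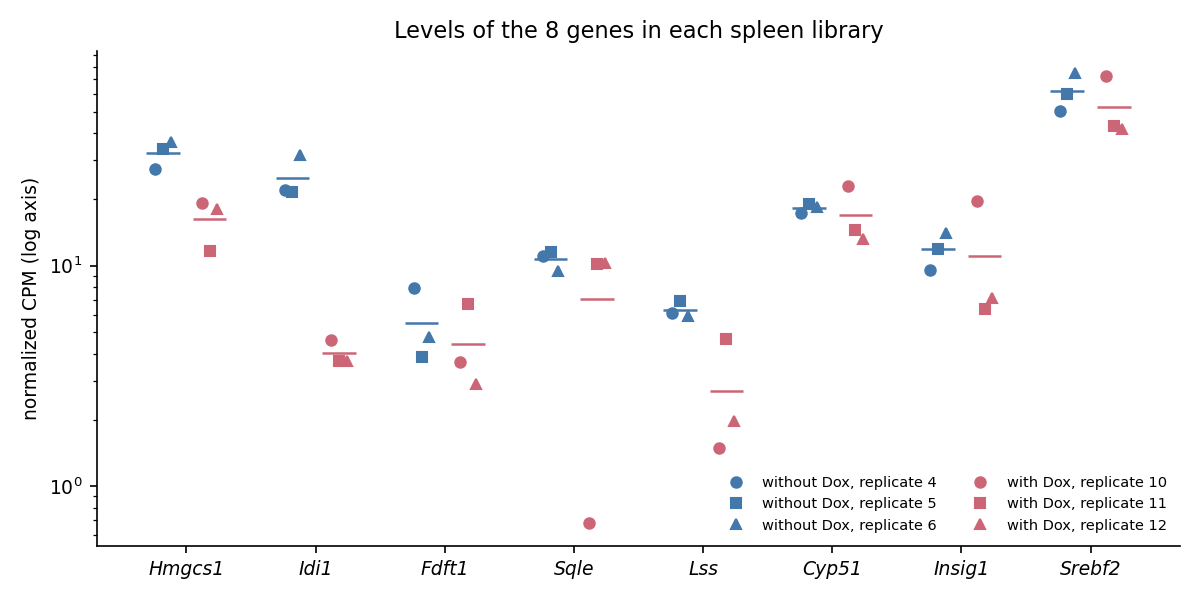
Normalized CPM (log axis) of each of the 8 genes in each library, blue without Dox and red with Dox; marker shapes are replicates and horizontal lines are group means (n = 3). Idi1 and Hmgcs1 separate the groups, Sqle has 1 low library with Dox (0.68 CPM), and Cyp51, Insig1 and Srebf2 overlap.

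Idi1 (isopentenyl-diphosphate delta-isomerase, Entrez gene 319554, GRCm38 chromosome 13, 8885501 to 8892451, plus strand) changed most of the 8. The enzyme interconverts the pair of five-carbon isoprenoid building blocks. Its level was 21.9, 21.5 and 31.9 CPM without Dox and 4.63, 3.71 and 3.69 CPM with Dox; the counts behind these were 106 to 188 and 28 to 36. The lowest library without Dox was far above the highest with Dox. The log2 fold change was -2.64 ± 0.34 (SE), a 6.25-fold lower level with Dox (adjusted p = 0.00018, edgeR quasi-likelihood test). In the 17 alternatives the adjusted p-value stayed between 2.58e-10 and 0.0020. Removing a trend of fold change with transcript length, an alternative added after the data were seen, moved the estimate most, to -2.02. The paralogue Idi2 had 8 counts over all 6 libraries, so reads of Idi2 itself were scarce.

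Hmgcs1 (cytosolic HMG-CoA synthase, Entrez gene 208715, chromosome 13, 119690379 to 119708260, plus strand) makes the HMG-CoA from which mevalonate is formed. Its level was 27.3, 33.8 and 36.3 CPM without Dox and 19.3, 11.6 and 18.1 CPM with Dox. All 3 libraries with Dox were below all 3 without. The level was 1.99-fold lower with Dox (log2 fold change -0.99, SE 0.28; edgeR adjusted p = 0.017). The call was lost with scaling by library size only (adjusted p = 0.079) and without replicate 5 or replicate 6 of the group without Dox (adjusted p = 0.057 and 0.056).

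None of the enzymes from squalene synthesis to the first demethylation of lanosterol passed the test. Fdft1 (squalene synthase, Entrez gene 14137, chromosome 14, 63145150 to 63179578, minus strand) joins farnesyl groups into squalene. It stood at 7.91, 3.85 and 4.75 CPM without Dox and 3.67, 6.69 and 2.90 CPM with Dox. The groups overlapped, and the difference was within the spread (log2 fold change -0.31, 95% interval -1.67 to 1.04, adjusted p = 0.700 by edgeR). The annotated 3′ end of Fdft1 lies within Ctsb on the opposite strand, with 774 shared bases, and Ctsb had 1206 to 2067 counts per library against 19 to 65 for Fdft1; whether counting used strand is not given in the sources used here, so the Fdft1 value is uncertain.

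Sqle (squalene epoxidase, Entrez gene 20775, chromosome 15, 59315077 to 59331192, plus strand) carries out a rate-limiting oxygenation of squalene. Without Dox its level was 11.04, 11.6 and 9.49 CPM. With Dox it was 0.68, 10.2 and 10.3 CPM, from 5, 99 and 78 counts. Replicates 11 and 12 with Dox lay close to the libraries without Dox, and replicate 10 was lower than every other library. The log2 fold change of -0.59 (95% interval -2.22 to 1.03, adjusted p = 0.536 by edgeR) became -0.09 without replicate 10. It was -0.99 and -0.97 without replicate 11 or 12 of the Dox group, -1.18 with limma-voom and -1.17 with group weights, none of which passed the test.

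Lss (lanosterol synthase, Entrez gene 16987, chromosome 10, 76531588 to 76557138, plus strand) closes the epoxide into the first sterol. It was 6.12, 6.89 and 5.93 CPM without Dox and 1.497, 4.63 and 1.98 CPM with Dox. Groups did not overlap, but the difference did not pass the test (log2 fold change -1.21, 95% interval -2.66 to 0.24, adjusted p = 0.157 by edgeR). Without replicate 11 of the Dox group, the highest of its libraries, it passed (log2 fold change -1.87, adjusted p = 0.038).

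Cyp51 (lanosterol 14-alpha-demethylase, Entrez gene 13121, chromosome 5, 4081145 to 4104746, minus strand) makes the first demethylation after lanosterol. Its level was 17.3, 19.0 and 18.5 CPM without Dox and 23.0, 14.5 and 13.2 CPM with Dox. The libraries without Dox lay within the range of those with Dox. The log2 fold change was -0.11 (95% interval -0.81 to 0.58, adjusted p = 0.787 by edgeR), an interval that leaves out a change as large as that of Idi1. In the GENCODE annotation the 3′ end of Cyp51 shares 166 bases with Akap9 on the opposite strand. RefSeq places that end at 4080674 rather than 4081145, farther into Akap9, and the stretch shared under RefSeq was not measured. Akap9 rose with Dox (log2 fold change 0.76, SE 0.19; edgeR adjusted p = 0.0078; 0.055 and 0.071 without replicate 5 or 6 of the group without Dox), and its part in the Cyp51 value was not tested.

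Among the regulators, neither Srebf2 nor Insig1 passed the test. Srebf2 (Entrez gene 20788, chromosome 15, 82147181 to 82205379, plus strand) was the most abundant of the 8, at 50.4, 60.2 and 74.6 CPM without Dox and 72.5, 43.0 and 41.5 CPM with Dox (log2 fold change -0.24, 95% interval -0.83 to 0.35, adjusted p = 0.490 by edgeR). Insig1 (Entrez gene 231070, chromosome 5, 28071363 to 28078662, plus strand) encodes a sterol-dependent retention protein and is itself a known target of SREBP2. It was 9.55, 11.96 and 14.1 CPM without Dox and 19.7, 6.38 and 7.12 CPM with Dox (log2 fold change -0.10, 95% interval -1.17 to 0.97, adjusted p = 0.879 by edgeR). In both genes replicate 10 was the highest library with Dox. Without it the log2 fold changes were -0.57 for Srebf2 (adjusted p = 0.079) and -0.84 for Insig1 (adjusted p = 0.126). Without Dox replicate 11 or 12 they were -0.14 and -0.12 for Srebf2 and 0.16 and 0.11 for Insig1. SREBP2 is regulated by cleavage of its protein, which transcript counts do not measure.

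The 8 genes did not vary together from library to library with Dox. In replicate 10, Insig1, Cyp51 and Srebf2 were 0.87, 0.40 and 0.38 above their own means over the 6 libraries on the log2 CPM scale, whereas Sqle and Lss were at -2.90 and -1.24. In replicate 11 the order turned: Lss and Sqle were at 0.22 and 0.54, and Insig1 and Hmgcs1 at -0.71 and -0.95. Idi1 alone of the 8 deviated by more than 1 in every library, from 1.08 to 1.64 without Dox and from -1.38 to -1.07 with Dox. With 3 libraries a group these are descriptions.

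**Figure D2:**
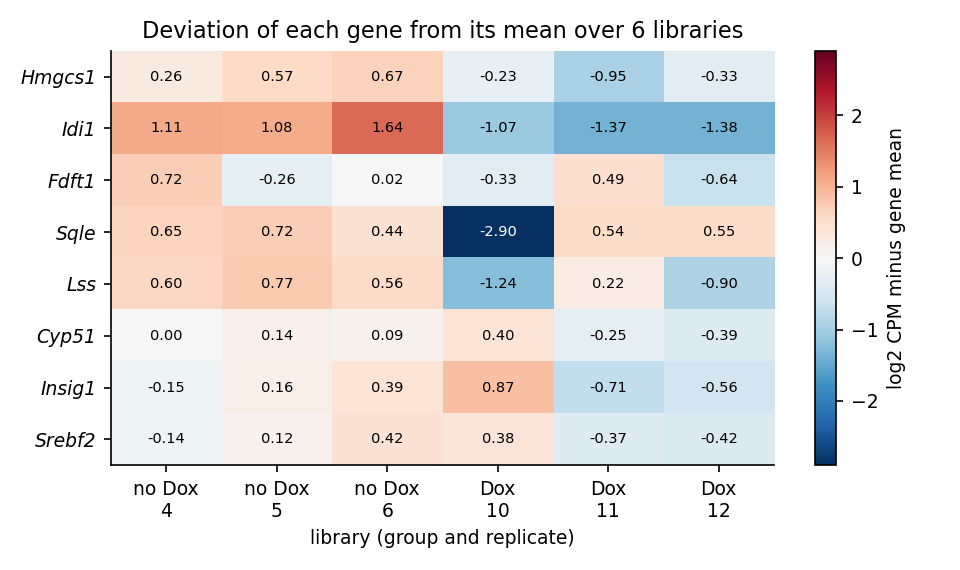
Deviation of log2 CPM of each gene (rows) from its mean over 6 libraries (columns, group and replicate), red above and blue below. Idi1 runs from 1.64 to -1.38 with the groups, while Sqle is low in Dox replicate 10 alone (-2.90) and Insig1 is highest there (0.87).

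The order of the 8 levels also differed. Without Dox, Srebf2 (61.7 ± 12.2 CPM, SD, n = 3) was followed by Hmgcs1 (32.5 ± 4.64), Idi1 (25.1 ± 5.87), Cyp51 (18.3 ± 0.89), Insig1 (11.9 ± 2.26), Sqle (10.7 ± 1.07), Lss (6.31 ± 0.51) and Fdft1 (5.502 ± 2.13). Neighbours whose libraries overlapped there were Hmgcs1 and Idi1, Insig1 and Sqle, and Lss and Fdft1. With Dox the order was Srebf2 (52.4 ± 17.5 CPM, SD, n = 3), Cyp51 (16.9 ± 5.33), Hmgcs1 (16.3 ± 4.13), Insig1 (11.1 ± 7.51), Sqle (7.05 ± 5.52), Fdft1 (4.42 ± 2.003), Idi1 (4.01 ± 0.54) and Lss (2.70 ± 1.69). Each neighbouring pair below Srebf2 overlapped. Idi1 moved from rank 3 to rank 7.

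Of 13 other enzymes of the route, all of which passed the filter, 2 rose (Msmo1 and Sc5d), 1 fell (Acat2) and 10 did not pass (median log2 fold change 0.10). The share called, 23.1%, was below the 45.6% of all genes tested, of which 23.6% were higher and 22.1% lower. Msmo1, the C4-methylsterol oxidase that acts soon after Cyp51, rose from 9.85, 10.7 and 8.48 CPM to 24.0, 26.8 and 26.1 CPM (log2 fold change 1.40, SE 0.28; edgeR adjusted p = 0.0024). Sc5d, which introduces the C5 double bond near the end of the route, rose from 8.66, 12.97 and 8.48 CPM to 31.3, 35.8 and 25.8 CPM (log2 fold change 1.63, SE 0.30; edgeR adjusted p = 0.0016). Groups of both genes were clearly apart, and both calls held in all 17 alternatives; with the length trend removed, the Msmo1 estimate was 2.05.

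Acat2, the cytosolic thiolase of the first step, went from 83.9, 107 and 86.6 CPM to 56.9, 46.2 and 67.7 CPM (log2 fold change -0.70, SE 0.20; edgeR adjusted p = 0.018). Its call was lost when libraries were scaled by size only (adjusted p = 0.136) or when replicate 5 without Dox was left out (adjusted p = 0.077).

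The 10 enzymes that did not pass were mostly low. Fdps, the farnesyl diphosphate synthase between Idi1 and Fdft1, had a log2 fold change of -0.77 (95% interval -1.55 to 0.01, adjusted p = 0.099 by edgeR), and it passed without replicate 12 of the Dox group (-1.07, adjusted p = 0.027), but was -0.18 once the length trend was taken out (adjusted p = 0.699). The mevalonate kinases Mvk and Pmvk were at 0.52 and 0.28, and the decarboxylase Mvd at -0.47 (-2.49 with limma-voom and -2.48 with group weights, neither past the test). Mvk rested on 5, 137 and 28 counts with Dox and changed sign without replicate 11 (-1.001), and Mvd had 43, 0 and 40 counts. The sterol reductases Tm7sf2 and Lbr were at -2.12 and 0.30. Tm7sf2 had 0, 17 and 0 counts with Dox, was at -3.69 with limma-voom, and passed without replicate 11, which leaves counts of 0 (adjusted p = 0.013), whereas Lbr, which is also a nuclear envelope protein, was the most abundant enzyme, at 244 ± 41.5 and 300 ± 25.4 CPM (SD, n = 3 each). Lbr passed with library size only (0.60, adjusted p = 0.020) and once the length trend was taken out (0.95, adjusted p = 0.0011), and was 0.17 and 0.19 without replicate 4 or 5 of the group without Dox and 0.16 with no low-count filter. Nsdhl, Hsd17b7, Ebp and Dhcr7 of the later steps were at -0.85, -0.03, 0.43 and 0.10, and Ebp passed once the length trend was taken out (0.96, adjusted p = 0.016) but was 0.21 without no-Dox replicate 4 and 0.25 without Dox replicate 10. Nsdhl was at -1.30 without Dox replicate 11 and -0.55 with library size only, neither past the test.

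**Figure D3:**
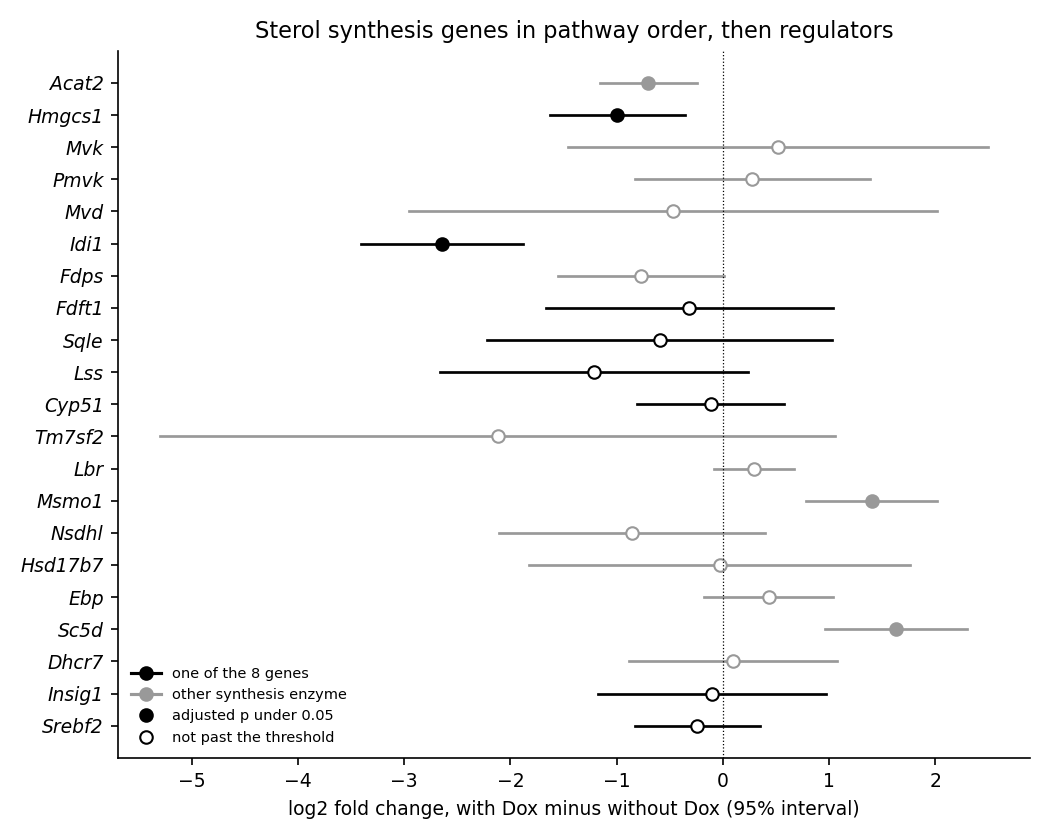
Log2 fold change (with Dox minus without Dox) with its 95% interval for sterol synthesis enzymes in approximate order of the route, then Insig1 and Srebf2; black marks the 8 genes, grey the other enzymes, and filled circles an adjusted p-value under 0.05. Filled circles lie on both sides of 0: Idi1 (-2.64), Hmgcs1 (-0.99) and Acat2 (-0.70) below, Msmo1 (1.40) and Sc5d (1.63) above.

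The list of SREBP regulation holds processing factors and also Srebf1 and the DNA-binding partners Sp1 and NF-Y. Of 15 listed, 14 passed the filter; 3 rose, 2 fell and 9 did not pass, with a median log2 fold change of -0.34 and 35.7% called, a lower share than the 45.6% of all genes tested. Mbtps2, the site-2 protease that frees the active factor, fell from 9.52 ± 0.47 to 1.76 ± 1.09 CPM (means ± SD of 3 libraries; edgeR adjusted p = 0.013). Srebf1, which encodes the related factor of fatty acid synthesis, fell from 22.4 ± 4.96 to 8.40 ± 4.09 CPM (adjusted p = 0.022). Both calls were lost without replicate 4 of the group without Dox (adjusted p = 0.055 and 0.058), and that of Srebf1 also without replicate 5 (adjusted p = 0.090) and with library size only (adjusted p = 0.065). Rnf145, a ubiquitin ligase of the sterol-sensing machinery, rose (log2 fold change 1.16, SE 0.27; edgeR adjusted p = 0.0058), as did the endoplasmic reticulum protein gene Erlin2 (1.12, SE 0.31; edgeR adjusted p = 0.015). The Erlin2 call was lost without replicate 5 or 6 of the group without Dox (adjusted p = 0.070 and 0.087) and with no low-count filter (adjusted p = 0.055), and its estimate was 1.72 with the length trend removed.

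Genes of lipoprotein uptake, its control and lysosomal cholesterol release summed to 318 to 336 CPM without Dox and 366 to 429 CPM with Dox. Of 10 genes, 3 rose, 1 fell and 6 did not pass (median log2 fold change 0.20); the 40% called was near the background of 45.6%. Npc1, which exports cholesterol from lysosomes, rose from 7.61, 8.51 and 8.31 CPM to 44.6, 43.6 and 23.1 CPM (log2 fold change 2.19, SE 0.33; edgeR adjusted p = 0.00045). Lrp8, a receptor of the lipoprotein receptor family, rose 3.16-fold (adjusted p = 0.0014). The remaining gene that rose, Mylip, encodes a ubiquitin ligase that directs lipoprotein receptors to degradation; it went from 27.4 ± 2.28 to 58.7 ± 5.10 CPM (adjusted p = 0.0015), so the sum mixes genes that act for and against uptake. The gene that fell was Lipa, the lysosomal lipase that frees cholesterol from its esters (log2 fold change -0.98, SE 0.34; edgeR adjusted p = 0.038). The Lipa call was lost without any 1 of the libraries without Dox (adjusted p from 0.071 to 0.102), with upper-quartile factors (0.057) and with library size only (0.128).

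Cholesterol efflux, storage and LXR genes (LXR is the nuclear receptor for oxysterols) summed to 416 to 464 CPM without Dox and 543 to 612 CPM with Dox. Of 12 listed, 11 passed the filter; 3 rose, none fell and 8 did not pass (median 0.44). The 27.3% that rose was near the 23.6% of all genes tested that were called higher, and below the 45.6% called in either direction. The largest rises were in the sterol hydroxylase gene Cyp27a1 (1.16 ± 1.08 to 10.3 ± 7.38 CPM, means ± SD of 3 libraries; edgeR adjusted p = 0.016) and the LXR partner gene Rxra (12.9 ± 2.80 to 27.4 ± 7.34 CPM, adjusted p = 0.018). The Cyp27a1 call was lost without replicate 10 of the Dox group (adjusted p = 0.083), without replicate 4 or 5 of the other group (0.062 and 0.063) and with limma-voom (0.135), and that of Rxra without replicate 5 or 6 of the group without Dox (0.083 and 0.105). The log2 fold change of Cyp27a1, 3.13, became 2.44 without Dox replicate 10 and 4.14 without no-Dox replicate 6.

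The isoprenoid branches draw on the product of Idi1. Of 12 genes of prenyl transfer, dolichol and ubiquinone synthesis, none rose, 5 fell and 7 did not pass (median -0.80). The 41.7% that fell was above the 22.1% of all genes tested that were called lower, and near the 45.6% called in either direction. Pggt1b, a subunit of the prenyltransferase that adds geranylgeranyl groups, had a log2 fold change of -2.21 (SE 0.72; edgeR adjusted p = 0.030), from few counts. Nus1, a subunit of the dolichol-making prenyltransferase, fell from 43.7 ± 7.92 to 15.4 ± 7.14 CPM (means ± SD of 3 libraries; adjusted p = 0.0084). The Pggt1b call was lost in 7 of 16 alternatives, without replicate 4 or 5 of the group without Dox and without replicate 11 of the Dox group among them (adjusted p = 0.159, 0.093 and 0.056), and the estimate was -2.98 without Dox replicate 10.

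Of 14 listed fatty acid synthesis genes, 13 passed the filter; 2 rose, 3 fell and 8 did not pass (median -0.58), with 38.5% called against 45.6% of all genes tested. Scd1, the stearoyl-CoA desaturase, rose from 2.74 ± 1.202 to 149 ± 17.5 CPM (means ± SD of 3 libraries; log2 fold change 5.76, SE 0.32, edgeR adjusted p = 1.87e-06), the largest change in the lipid lists. Thrsp, a lipogenic regulator, rose by 3.50 (SE 1.02, adjusted p = 0.019). The fatty acid elongase gene Elovl5 and the desaturase gene Fads2 fell by 2.29 and fell by 1.93 on the log2 scale (adjusted p = 0.00072 and 0.018). The calls of Thrsp and Fads2 did not hold in each fit that left out a library, with adjusted p-values up to 0.074 and 0.064: Thrsp was lost without replicate 4 or 5 of the group without Dox or replicate 11 of the Dox group and also with limma-voom (adjusted p = 0.094), and Fads2 without replicate 5 or 6 of the group without Dox. The size of these changes also moved: the Thrsp estimate ran from 2.91 without no-Dox replicate 5 to 4.28 without no-Dox replicate 6. Without Dox replicate 11 the log2 fold change was -2.92 for Elovl5 and -2.64 for Fads2, and with the length trend removed that of Elovl5 was -1.64.

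**Figure D4:**
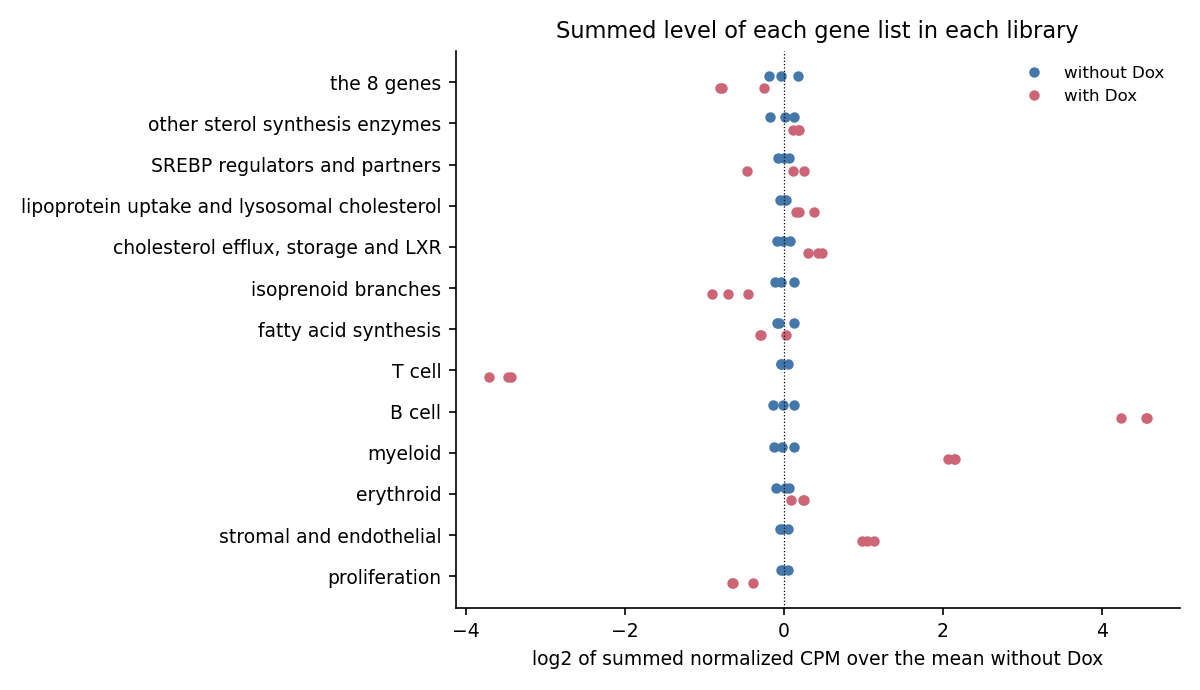
Summed normalized CPM of each gene list in each library, as log2 of its ratio to the mean without Dox (blue without Dox, red with Dox). The 8 genes shift less than the T cell, B cell and myeloid lists, whose summed levels differ by 11.5, 22.1 and 4.35 times.

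Cell type and proliferation markers moved with the same groups. The share called in each list below was 66.7% to 100%, against 45.6% of all genes tested (22.1% lower and 23.6% higher). Of 20 T cell genes, 18 fell and none rose, and their sum was 4657 to 4952 CPM without Dox and 364 to 440 CPM with Dox. All 15 B cell genes rose (167 to 202 against 3492 to 4359 CPM). Of 18 myeloid genes, 11 rose and 3 fell (671 to 795 against 3051 to 3237 CPM), and the neutrophil marker Ly6g had 0 counts in each library without Dox. Of 14 proliferation genes, 11 fell and none rose (4545 to 4831 against 2986 to 3585 CPM, a sum made up mostly of the 3 genes that did not pass). Of 12 erythroid genes, 6 rose and 2 fell (68034 to 76233 against 77463 to 86550 CPM, a sum made up mostly of haemoglobin genes that did not all move one way). Of 12 stromal and endothelial genes, 7 rose and 1 fell (525 to 563 against 1071 to 1196 CPM). No other marker of these lists was at 0 in all libraries of a group. Their part in the changes of Idi1, Hmgcs1 and the other sterol genes was not tested, and in such bulk RNA fewer cells of a type and less RNA per cell cannot be told apart.

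Genes outside the lists with a pattern most like the mean of the 8 were found by the root mean square distance between centred log2 CPM over the 6 libraries. The closest 5 were Tagln2 (0.056), Aebp2 (0.056), Gtf3c6 (0.058), Adrm1 (0.064) and Ak6 (0.069). These 5 were picked as the minimum over all genes tested outside the lists, so their small distances are a description only. The 8 genes themselves lay farther from that mean, from 0.31 (Hmgcs1) to 1.13 (Sqle). A gene close to the mean therefore need not be close to any of the 8.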

How the data were processed

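RNA 3′ ends of 6 mouse spleen libraries were sequenced with a poly(A)-primed kit, per the labels' protocols. The authors deposited raw counts per Entrez gene ID, 1 column a library with no pooling; STAR, featureCounts and GRCm38 are named in the submitters' processing notes, without versions or strand setting. All 6 columns matched a sample title, and 0 columns were left over. Symbols came from RefSeq (GRCm38.p6) for 39374 of 40808 IDs, and gene positions from GENCODE M21 on GRCm38. Some pathway genes are not reported here.

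The test used edgeR 4.0.16 under R 4.3.3 (filterByExpr with minimum count 10 and minimum total 15, TMM factors, quasi-likelihood F-test on 6 libraries, no covariate), with Benjamini-Hochberg adjustment over all genes tested and a threshold of 0.05. Standard errors and 95% intervals were derived from the F statistic. From total counts without TMM factors, a floor of 3 counts lay at 0.34 to 0.54 CPM, which is not on the scale of the normalized CPM printed here. This floor covers counting error only. On counts simulated for this comparison, over 13455 genes tested, 12.5% of genes changed by 1 on the log2 scale and 56.4% of those changed by 2 were called, with 4 of 13265 unchanged genes. In that simulation nearly all genes were unchanged and the spread of a gene was the same in both groups, unlike these data. Its shares therefore do not give how often real changes were missed here. The members, lists and tests were chosen with earlier results of these data known. Besides the 8 genes, the text names each listed enzyme of the route and, from each other lipid list, up to 2 called genes with the largest rise and 2 with the largest fall, plus the 5 of closest pattern; Akap9, Ctsb, Idi2, Mylip, Ly6g, Xist and the Y-linked genes were picked once values were known. Alternatives were other scalings, filters, DESeq2 1.42.0, voom in limma 3.58.1 with and without group weights, leaving out abundant gene classes, a threshold of 0.01, leaving out each library and, added later, a length trend removed.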

Additional observations from a re-analysis of the deposited data

How the results depend on the processing

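No paired analysis was possible because replicates 4 to 6 and 10 to 12 have no number in common. The count of changed genes stayed within 1.5 times of 6438 in all 17 alternatives, from 4794 to 7025 with 1 library left out. Of the 8 genes, 2 were called in most settings, 1 with library size only, 1 at an adjusted p under 0.01, and 1 to 3 with 1 library left out; of the 13 other enzymes 3 were called, 5 with the length trend removed, and 2 to 4 with 1 library left out. Idi1 kept its direction and call in all 17. Changes of sign occurred in genes that did not pass the test. With library size only, where the median over all genes moved by 0.31, log2 fold changes became 0.0075 for Fdft1, 0.20 for Cyp51, 0.21 for Insig1, 0.072 for Srebf2 and 0.29 for Hsd17b7, which was 0.071 with upper-quartile factors. With at least 10 counts in every library they were 0.0029 for Cyp51 and 0.014 for Insig1. Mvk became -0.11 with limma-voom and -0.095 with group weights, and Dhcr7 -0.042 with no low-count filter, -0.014 with limma-voom and -0.018 with group weights. With 1 library left out, estimates ran from -0.77 to 0.0031 for Fdft1, -0.43 to 0.017 for Cyp51, -0.84 to 0.16 for Insig1, -1.001 to 1.02 for Mvk, -0.15 to 0.56 for Pmvk, -0.99 to 0.10 for Mvd, -1.01 to 0.39 for Hsd17b7 and -0.33 to 0.34 for Dhcr7. The cause of these changes was not tested. Among the 8, of the genes that missed the threshold, the 95% interval of Fdft1, Sqle, Lss and Insig1 takes in a change of 1 on the log2 scale. That of Cyp51 and Srebf2 does not. Sqle, with 5 counts in 1 library, has no value under the filter of 10 counts in every library.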
